A study of Mus musculus with 6 samples.

Results

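The genes described here are 9 complement genes, taken from the 13931 genes of the series by symbol. They are the components Hc, C3, Cfb, C2 and C4b, the regulators Serping1, Cfp and Cd55, and the receptor C3ar1. They were measured by RNA sequencing in preparations labelled as lung alveolar epithelial type 2 cells (AT2 cells, the surfactant-producing cells of the alveolus) from C57BL/6 mice. The control group was exposed repeatedly to PBS and its libraries are titled sham (3 mice), and the treated group was exposed repeatedly to bleomycin, an antibiotic that breaks DNA and injures the lung, at 1 U/kg, with libraries titled mBLM (3 mice). The labels name no transgene, and give no age, sex, route, number of exposures, time of harvest or sorting scheme.

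Complement is a cascade of plasma proteins that marks and lyses targets and recruits leukocytes. The classical and lectin routes cleave C4 and C2, the alternative route uses factor B and properdin, and both lead to cleavage of C3 and then of C5, whose fragments start the lytic pore and act on receptors of myeloid cells. Most circulating complement comes from the liver, but cells of the lung, AT2 cells and fibroblasts among them, also make components.

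Of the 9 genes, 3 changed in the bleomycin libraries. Hc, which encodes complement C5, fell 3.98-fold, Serping1, the gene of the C1 inhibitor, fell 2.42-fold, and Cfp, the gene of properdin, rose 4.93-fold. The calls of Hc and Cfp held with any 1 library left out. That of Serping1 was lost without any 1 library other than bleomycin replicate 3. The genes of the central and early components, C3, Cfb, C2 and C4b, did not pass the test, and neither did Cd55, while C3ar1 was below 1 FPKM in every library and was not tested. FPKM, the unit of the files, corrects fragment numbers for transcript length and for library size. The test was limma on log2(FPKM + 1) over the 12326 genes with at least 1 FPKM in 3 or more libraries, called at an adjusted p under 0.05, and fold changes are on that scale. Values of single libraries are given in the order of replicates 1, 2 and 3. Over all tested genes 22.5% were called, 15.2% as higher (1871) and 7.34% as lower (905), a split that became 1475 and 1412 with libraries scaled to equal medians. Of the 8 tested complement genes 1 was called higher and 2 lower. With 8 genes, a difference from these shares was not tested.

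The content of the libraries differed between the groups beyond these genes, as marker lists show. Markers of AT2 cells summed to between 17742 and 25786 FPKM in PBS and between 3298 and 7573 in bleomycin libraries, a sum dominated by Sftpc, and all 10 were called lower, or 7 or 8 with any 1 library left out. Markers of fibroblasts and smooth muscle were present throughout, summing to 1858 to 2578 FPKM with PBS and 472 to 1150 with bleomycin. Of these 9 markers 4 were called lower, and between 1 and 5 with 1 library left out. The 4 pan-leukocyte markers summed to 15.7 to 26.6 FPKM with PBS and to 670 to 1087 with bleomycin, and all 4 were called higher. The 8 endothelial markers, all called higher, summed to 35.6 to 41.1 and 265 to 462 FPKM. No marker in these 4 lists was listed at 0 in any library. In such bulk samples, fewer cells of a type and less RNA per cell cannot be told apart. Depth is unknown, because the files hold no counts.

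Promoters are shown for Hc (called lower), Cfp (called higher) and C3 (not called), the component at which all routes meet. RefSeq promoter windows (GRCm38.p6, 250 bases before to 50 after the annotated start) were found for 5 of the 9 genes, Hc, C3, Cfp, Cd55 and C3ar1. Each is printed 5′ to 3′ on the gene's strand, and all 3 genes lie on the minus strand. Capitals mark matches to 6 motifs searched on both strands.
Hc, chr2:35061363-35061662: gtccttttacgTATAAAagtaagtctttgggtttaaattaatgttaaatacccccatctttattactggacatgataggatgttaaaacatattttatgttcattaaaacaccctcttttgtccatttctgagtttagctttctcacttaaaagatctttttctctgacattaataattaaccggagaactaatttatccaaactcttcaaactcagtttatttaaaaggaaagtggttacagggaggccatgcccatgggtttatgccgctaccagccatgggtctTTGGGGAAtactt
C3, chr17:57228087-57228386: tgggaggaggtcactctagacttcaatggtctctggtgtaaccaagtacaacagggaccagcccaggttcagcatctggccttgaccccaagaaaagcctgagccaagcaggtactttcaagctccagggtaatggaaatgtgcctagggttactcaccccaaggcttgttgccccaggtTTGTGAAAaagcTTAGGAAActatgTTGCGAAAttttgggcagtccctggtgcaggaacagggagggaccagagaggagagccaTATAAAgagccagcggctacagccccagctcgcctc
Cfp, chrX:20931506-20931805: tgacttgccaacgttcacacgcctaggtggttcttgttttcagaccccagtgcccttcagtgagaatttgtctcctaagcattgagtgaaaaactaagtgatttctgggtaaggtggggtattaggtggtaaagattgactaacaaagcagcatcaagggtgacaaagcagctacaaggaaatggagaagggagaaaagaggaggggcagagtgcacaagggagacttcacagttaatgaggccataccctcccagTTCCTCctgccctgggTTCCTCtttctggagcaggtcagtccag

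The motifs were those of C/EBP (TTNNGNAA), STAT (TTCNNNGAA) and PU.1 (GAGGAA) factors, of NF-kappaB (GGG, any 3 bases, TTCC), of IRF factors (GAAA, any 2 bases, GAAA) and the TATA box (TATAAA). The C3 window held TTNNGNAA at bases 181 to 188, 193 to 200 and 206 to 213, the last on both strands, all before the annotated start. The Hc window held it once, at bases 288 to 295, after the annotated start, and 40.7% of 32851 promoter windows held at least 1 match. The Cfp window held GAGGAA on its opposite strand at bases 257 to 262 and 273 to 278, both after the annotated start. Of all windows 28.3% held this motif. TATAAA, in 13.6% of windows, began at base 265 of the C3 window and base 12 of the Hc window. The NF-kappaB motif, in 5.56% of windows, was found among the 5 genes only for C3ar1, whose window also held TATAAA, and TTCNNNGAA (8.30% of windows) and the IRF motif (3.44%) in none of the 5. A match describes letters and not a bound site.

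Hc encodes C5, which is split into the anaphylatoxin C5a and the fragment that seeds the membrane attack complex (ENSMUSG00000026874.10, mm10, chr2:34983331-35061438, minus strand, 1 listed transcript). It measured 317, 497 and 447 FPKM in the PBS libraries and 125, 126 and 69.1 FPKM in the bleomycin libraries. Every PBS library lay above every bleomycin library, with bleomycin replicate 3 the lowest of all. The means were 420 ± 92.8 and 107 ± 32.5 FPKM (SD, n = 3), and the change was -1.99 ± 0.30 on the log2 scale (SE, 95% interval -2.72 to -1.27, limma adjusted p = 0.00535). The call held with any 1 library left out (limma adjusted p 0.00879 to 0.0256). The AT2 marker sum was lowest in the same library, bleomycin replicate 3, at 3298 FPKM. Of all tested genes 40.6% had their lowest bleomycin value in that library. Within PBS the AT2 marker sum was 25786, 19299 and 17742 FPKM, highest in replicate 1, where Hc was lowest of the PBS libraries. The part of AT2 content in the change of Hc was not tested.

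C3 encodes the protein whose activation all routes share (ENSMUSG00000024164.15, chr17:57203970-57228136, minus strand, 2 transcripts, of which C3-001 held at least 99.0% of the FPKM in each library). It measured 486, 395 and 404 FPKM in the PBS libraries and 162, 295 and 399 FPKM in the bleomycin libraries. The groups overlapped: bleomycin replicate 3 lay between the PBS libraries and the other two bleomycin libraries lay below all of them. The change was -0.67 ± 0.34 (95% interval -1.49 to 0.15, limma adjusted p = 0.207), so the interval includes no change. Without bleomycin replicate 1 it was -0.31.

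C4b, Cfb and C2 lie near each other on chromosome 17, in the class III part of the major histocompatibility region, all on the minus strand. C4b encodes C4, the substrate of the classical and lectin proteases (ENSMUSG00000073418.4, chr17:34728380-34743882). It measured 155, 136 and 134 FPKM in the PBS libraries and 56.1, 127 and 188 FPKM in the bleomycin libraries. Bleomycin replicate 1 was the lowest of the 6 libraries and bleomycin replicate 3 the highest, and the groups overlapped. The change was -0.35 ± 0.42 (95% interval -1.36 to 0.66, limma adjusted p = 0.593), and it was 0.13 without bleomycin replicate 1 and -0.73 without bleomycin replicate 3. C4a, its near-identical copy, is not among the listed genes, and reads of the pair may have been assigned to C4b.

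Cfb encodes factor B, the protease of the alternative convertase (ENSMUSG00000090231.10, chr17:34856374-34862518). Its values were 44.0, 32.5 and 40.7 FPKM in the PBS libraries and 17.1, 26.7 and 29.9 FPKM in the bleomycin libraries. The groups did not overlap, yet the gene did not pass (change -0.67 ± 0.24, 95% interval -1.26 to -0.09, limma adjusted p = 0.0945), and the change was -0.44 without bleomycin replicate 1. With libraries scaled to equal medians, where the median change over all tested genes was -0.07 and not 0.09, it was called lower (-0.86, limma adjusted p = 0.0392). Transcripts Cfb-201 and Cfb-001, which start and end within a few bases of each other, took different shares of the sum from library to library. Cfb-001 held from 0.433% to 46.1% of the gene's FPKM and Cfb-201 from 40.2% to 87.7%.

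C2 encodes the classical counterpart of factor B (ENSMUSG00000024371.14, chr17:34862605-34882100, with 86 bases between its 3′ end and the 5′ start of Cfb). Its values were 44.2, 31.3 and 30.9 FPKM in the PBS libraries and 17.5, 26.8 and 33.7 FPKM in the bleomycin libraries, and the groups overlapped. The change was -0.46 ± 0.27 (95% interval -1.12 to 0.19, limma adjusted p = 0.272), and it was -0.21 without bleomycin replicate 1 and -0.30 without PBS replicate 1. In each library C2 and Cfb had nearly the same FPKM, with a Cfb to C2 ratio between 0.887 and 1.32. A read-through gene spanning both, Gm20547, was listed at 0.131 FPKM or less, so reads shared with it would be few as listed, although the split between overlapping models is uncertain.

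Serping1 encodes the C1 inhibitor, a serpin that inactivates C1r, C1s and the lectin proteases (ENSMUSG00000023224.12, chr2:84765387-84775444, 2 transcripts). It measured 754, 551 and 612 FPKM in PBS replicates 1, 2 and 3, the highest mean of the 9 genes, and 163, 303 and 359 FPKM in the bleomycin libraries. The groups did not overlap, with bleomycin replicate 1 the lowest. The means were 639 ± 104 and 275 ± 101 FPKM (SD, n = 3), a change of -1.28 ± 0.33 (95% interval -2.06 to -0.49, limma adjusted p = 0.0358). The call was lost without any 1 library other than bleomycin replicate 3 (limma adjusted p 0.0555 to 0.102). Over the 6 fits that leave out 1 library the change ran from -1.51 to -0.94. In the same bleomycin replicate 1 the fibroblast and smooth muscle markers summed to 472 FPKM, the lowest of the 6 libraries, and their part in the change was not tested.

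Cfp encodes properdin, which stabilises the alternative convertase and is made mainly by myeloid and T cells (ENSMUSG00000001128.7, chrX:20925454-20931555). It measured 2.40, 2.47 and 2.62 FPKM in the PBS libraries and 16.9, 12.0 and 20.9 FPKM in the bleomycin libraries. Each bleomycin library was more than 4 times above each PBS library. The change was 2.30 ± 0.22 (95% interval 1.77 to 2.84, limma adjusted p = 0.000835), and the call held with any 1 library left out (limma adjusted p 0.00176 to 0.00649). In the same libraries all 6 neutrophil markers and 8 of 10 tested macrophage and monocyte markers were called higher, with medians of 4.17 and 3.18 on the log2 scale. Neutrophil markers summed to 9.34 to 31.3 FPKM with PBS and 413 to 606 with bleomycin. The macrophage and monocyte sums, 1054 to 1415 and 887 to 4074 FPKM, are mostly Lyz2, which AT2 cells also express. The 8 T and NK cell markers, all called higher, summed to 2.48 to 7.39 FPKM with PBS and to 236 to 437 with bleomycin. Cd8a was listed at 0 in 1 PBS library. Some markers of these lists passed the filter only through the bleomycin libraries, so only a rise could be called for them. Under 1 FPKM in every PBS library were Cxcr2, Mmp9, Adgre1, Siglecf, Fcgr1, Marco, Cd3e, Cd3d, Lck, Cd8a and Cd4. No neutrophil, macrophage or monocyte marker was at 0 in a library, and the part of these lists in the rise of Cfp was not tested.

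Cd55 encodes decay-accelerating factor, a membrane protein that takes C3 convertases apart (ENSMUSG00000026399.12, chr1:130439027-130462744). It measured 30.0, 17.3 and 31.4 FPKM in the PBS libraries and 77.2, 32.5 and 25.5 FPKM in the bleomycin libraries. Bleomycin replicates 1 and 2 lay above the PBS libraries and the groups overlapped through bleomycin replicate 3. The change was 0.64 ± 0.44 (95% interval -0.41 to 1.70, limma adjusted p = 0.341), and it was 0.18 without bleomycin replicate 1 and 0.38 without PBS replicate 2. Its paralog Cd55b, beside it on chromosome 1, was called higher at a low level, from 0.826 ± 0.0796 to 1.98 ± 0.433 FPKM (SD, n = 3, change 0.70, limma adjusted p = 0.032). Cd55b was under 1 FPKM in every PBS library and passed the filter only through the bleomycin libraries. Its call was lost without any 1 library other than bleomycin replicate 3 (limma adjusted p 0.0627 to 0.104). Reads of the 2 similar genes may be split unevenly. An antisense gene overlaps the start of Cd55 in GENCODE M21, and whether strand was used in counting is not stated.

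C3ar1 encodes the receptor of the anaphylatoxin C3a (ENSMUSG00000040552.8, chr6:122847138-122856161). It was listed at 0.193, 0.205 and 0.0934 FPKM in the PBS libraries and at 0.0514, 0.676 and 0.0105 FPKM in the bleomycin libraries. All 6 values are under the 1 FPKM filter, and fitted without a filter the change was 0.06 ± 0.22 (limma adjusted p = 0.874). The C5a receptor C5ar1, by contrast in these values, measured 0.274, 0.262 and 0.230 FPKM with PBS and 12.6, 5.73 and 4.75 FPKM with bleomycin. C5ar1 thus passed the filter only through the bleomycin libraries. Its change was 2.69 ± 0.33 (limma adjusted p = 0.00227), but 4.33 with a pseudocount of 0.1 and 1.22 with 5.

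**Figure D1:**
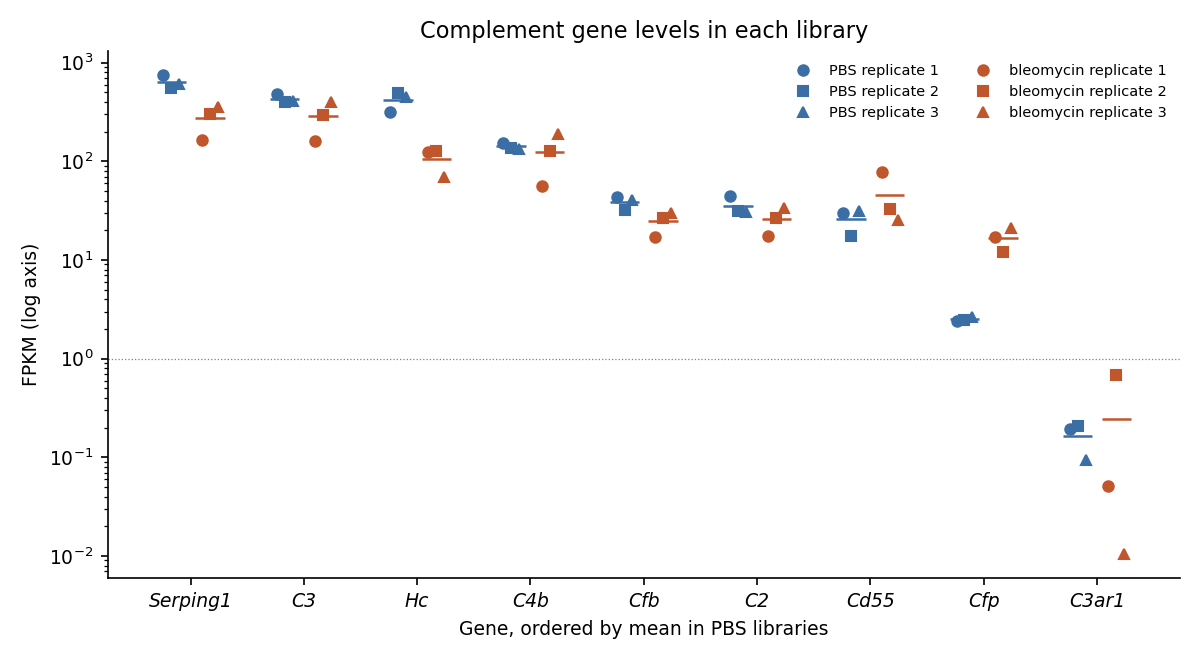
FPKM of the 9 complement genes (log axis) in each of the 6 libraries, with horizontal bars at the group means (n = 3 each) and a dotted line at 1 FPKM. Hc, Serping1 and Cfb are lower and Cfp higher in all bleomycin libraries than in all PBS libraries, while C3, C2, C4b and Cd55 overlap and C3ar1 stays below the line.

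Of the 8 tested genes, 4 (Hc, Serping1, Cfb and Cfp) had groups that did not overlap, against 43.6% of all tested genes. The order of the levels also differed between the groups. With PBS, Serping1 was highest, followed by C3 (428 FPKM) and Hc (420 FPKM), whose ranges overlapped, then C4b (141 FPKM). Cfb, C2 and Cd55 followed at 39.0, 35.5 and 26.2 FPKM, each overlapping its neighbour, then Cfp at 2.49 and C3ar1 at 0.164 FPKM. With bleomycin, C3 (285 FPKM) and Serping1 (275 FPKM) led, with C4b (124 FPKM) and Hc (107 FPKM) behind them. From C3 down to Cfp every neighbouring pair of that order overlapped, and only C3ar1 was set apart from its neighbour. Genes further apart in the order could still lie apart. The lowest bleomycin value of Hc, 69.1 FPKM, was above the highest of C2, 33.7 FPKM.

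Hc and C3 encode related proteins at successive steps. Their group means were close with PBS (420 and 428 FPKM) and further apart with bleomycin (107 and 285 FPKM), but the ratios of single libraries varied. The C3 to Hc ratio of FPKM was 1.53, 0.795 and 0.904 in PBS replicates 1, 2 and 3 and 1.29, 2.34 and 5.78 in bleomycin replicates 1, 2 and 3. The groups overlapped through PBS replicate 1 and bleomycin replicate 1. The difference in mean log2 ratio was 1.32 (exact permutation test, two-sided, p = 0.2, adjusted over the 3 ratios tested p = 0.2), in a design of 3 against 3 that cannot give a p below 0.1. It was 0.75 without bleomycin replicate 3 and 1.82 without bleomycin replicate 1. The Cfb to C2 ratio differed by -0.21 (exact permutation p = 0.2, adjusted p = 0.2), by -0.09 without PBS replicate 3 and by -0.05 on the highest transcript of each gene. The C3ar1 to C5ar1 ratio, on FPKM + 1, differed by -2.63 with no overlap (exact permutation p = 0.1, adjusted p = 0.2). Both genes were under 1 FPKM with PBS, so the pseudocount sets the size of this difference, which was -4.46 with a pseudocount of 0.1 and -1.20 with 5.

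**Figure D2:**
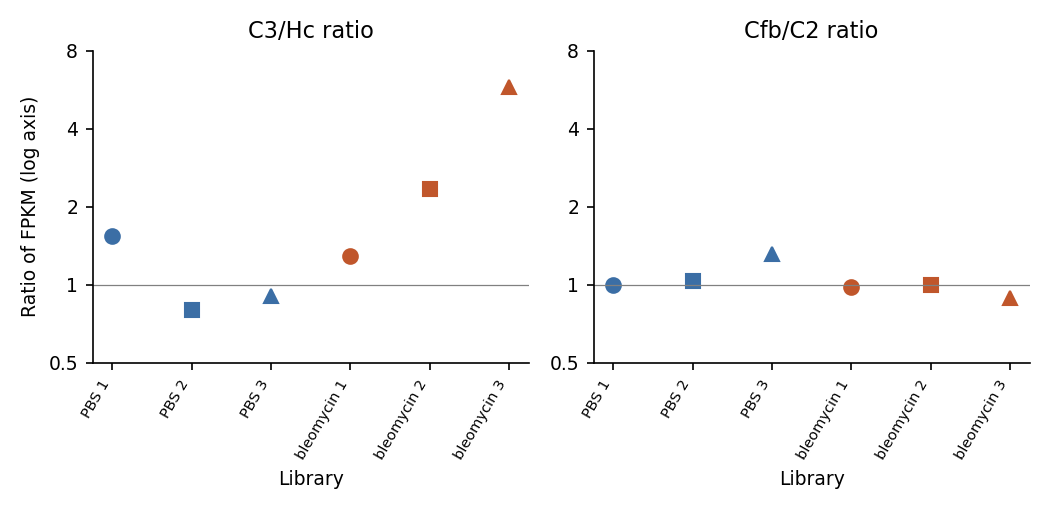
Ratio of FPKM in each library, C3 to Hc on the left and Cfb to C2 on the right (log axes, PBS blue, bleomycin orange, 1 point per mouse). The C3 to Hc ratio runs from 0.795 to 1.53 with PBS and from 1.29 to 5.78 with bleomycin, and the Cfb to C2 ratio stays between 0.887 and 1.32.

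The 3 bleomycin libraries did not hold the complement genes at the same relative levels. C3, Cfb, C2, C4b and Serping1 all had their lowest bleomycin value in replicate 1 and their highest in replicate 3. Among all tested genes 19.4% had this arrangement, as did 10 of the 30 other tested complement genes. Of the marker lists, it was seen in 5 of 9 fibroblast and smooth muscle, 1 of 8 endothelial, 1 of 6 AT1, 1 of 4 mesothelial, none of 6 club and ciliated, none of 10 AT2 and none of 35 leukocyte markers tested. Hc and Cd55 had their lowest bleomycin value in replicate 3, as did 40.6% of all tested genes, 8 of 10 AT2, 8 of 8 T and NK, 5 of 7 B and plasma cell, 4 of 6 AT1 and 4 of 6 club and ciliated markers. It was seen in 2 of 4 pan-leukocyte, 3 of 10 macrophage and monocyte, 2 of 6 neutrophil, 3 of 8 endothelial, 1 of 4 mesothelial and 1 of 9 fibroblast and smooth muscle markers. Cd55 was highest in replicate 1. Cfp was lowest in replicate 2. These arrangements were noticed in these data and are given as a description only.

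**Figure D3:**
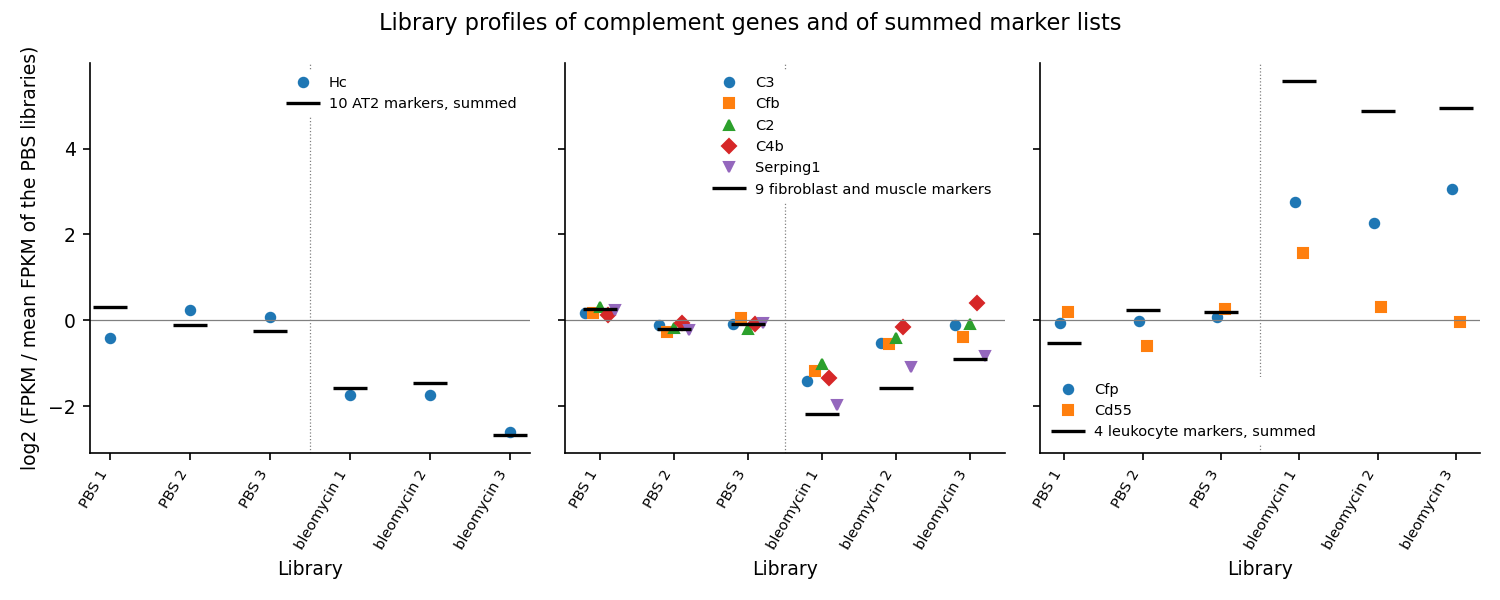
Library values relative to the mean of the PBS libraries (log2 of the FPKM ratio) for Hc with the summed AT2 markers (left), for C3, Cfb, C2, C4b and Serping1 with the summed fibroblast and smooth muscle markers (middle), and for Cfp and Cd55 with the summed pan-leukocyte markers (right). In bleomycin replicate 1 the 5 genes of the middle panel and their marker sum are at their lowest, whereas Hc and the AT2 sum are lowest in bleomycin replicate 3. Among the PBS libraries, replicate 1 has the highest AT2 sum and the lowest Hc.

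Genes with the most similar profiles were sought among 7975 named genes with a mean of at least 5 FPKM, by the root mean square difference of centred log2 values over the 6 libraries. For Hc the nearest were Lamp3 (0.114), which is in the AT2 marker list used here, then Sgpp2 (0.156) and Slco4c1 (0.178). Lamp3 measured 121, 198 and 193 FPKM in the PBS libraries and 56.4, 56.4 and 25.1 FPKM with bleomycin, so that its low libraries are those of Hc. Other AT2 markers did not share this order within PBS. Lamp3 and Sftpb were highest in PBS replicate 2. The rest of the list, such as Sftpc (20624, 14292 and 13393 FPKM), were highest in PBS replicate 1, the lowest PBS library for Hc. For Serping1 the nearest were Gsn (0.0748), Tmem119 (0.0766) and Bgn (0.0835). Bgn, which encodes the matrix proteoglycan biglycan, measured 880, 674 and 768 FPKM with PBS and 188, 379 and 493 FPKM with bleomycin. For C3 they were Itgb5 (0.096), Rftn2 (0.107) and Tnfsf12 (0.111). Cd55 had no gene closer than 0.212, that of Tmem107, followed by Tmem14c (0.219). C3ar1 is nearly flat on this scale, and its nearest were Mlf2 (0.0765), Sema4b (0.0862) and Isg20l2 (0.095).

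The rest of the complement system was read from a list of 51 other genes, of which 36 are listed in the files and 30 were tested. Of these 30, 8 were called higher and 6 lower, beside 15.2% and 7.34% of all tested genes (22.5% in either direction). With equal medians 6 were called higher and 9 lower. Of the higher calls, C5ar1, Cr2, Itgam and Cd55b passed the filter only through the bleomycin libraries, so only a rise could be called for them. Mbl1, among the lower calls, passed it only through the PBS libraries, so only a fall could be called. The median log2 fold change of the 30 genes was -0.12 and that of the 8 tested genes of the main set -0.57, against 0.09 over all tested genes. A list median does not single out the list.

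Recognition molecules and their proteases went in both directions, with 2 of 11 higher, 2 lower and 7 not called. Over all tested genes 15.2% were called higher and 7.34% lower. C1qa, a chain of the C1q collagenous recognition molecule, measured 4.97, 2.38 and 2.68 FPKM with PBS and 5.71, 22.1 and 27.0 FPKM with bleomycin, and C1qc 2.55, 1.55 and 0.259 against 4.12, 15.6 and 9.53 FPKM. C1qa rose by 1.96 (limma adjusted p = 0.0492) and C1qc by 2.10 (limma adjusted p = 0.0354). C1qb, the remaining chain, was not called (change 1.71, limma adjusted p = 0.172). It measured 2.80, 1.27 and 2.57 FPKM with PBS and 3.93, 4.55 and 38.7 FPKM with bleomycin. The call of C1qa was lost without any 1 library other than bleomycin replicate 1 (limma adjusted p 0.0794 to 0.14), and that of C1qc when replicate 2 or 3 of either group was left out (0.0795 to 0.0959). Mbl1, a mannose-binding lectin, fell from 2.14 ± 0.233 to 0.517 ± 0.131 FPKM (SD, n = 3, change -1.05, limma adjusted p = 0.00556). Mbl1 was under 1 FPKM in every bleomycin library and passed the filter only through the PBS libraries. Its change was -1.88 with a pseudocount of 0.1 and -0.37 with 5. Colec12, a scavenger collectin, changed by -1.14 (limma adjusted p = 0.0497), a call lost without any 1 library other than bleomycin replicate 3 (0.0758 to 0.138). The proteases C1ra and C1s1, targets of the C1 inhibitor, measured 122 ± 21.0 and 116 ± 6.24 FPKM with PBS and 60.4 ± 25.5 and 79.9 ± 44.3 FPKM with bleomycin, and neither passed (limma adjusted p = 0.0636 and 0.286), although C1ra did without bleomycin replicate 3 (limma adjusted p = 0.03). C1ra and C1s1 each have a similar neighbouring copy, C1rb and C1s2, so the split of their reads is uncertain.

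Of the terminal components, C6, which joins the forming pore after C5b, fell from 38.8 ± 3.20 to 19.4 ± 2.68 FPKM (SD, n = 3, change -0.97 ± 0.16, limma adjusted p = 0.00722). The call held with any 1 library left out, but not on the gene's highest transcript alone (limma adjusted p = 0.145). C7, the next to join, measured 306, 401 and 470 FPKM with PBS and 91.8, 204 and 296 FPKM with bleomycin, without overlap, but did not pass (change -1.12 ± 0.44, limma adjusted p = 0.114). C8g was listed under 1 FPKM in all libraries, and Cfd, the alternative route's factor D, measured 1.34 ± 0.612 and 3.28 ± 1.76 FPKM (limma adjusted p = 0.168).

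Among soluble regulators 2 of 5 tested genes were lower, none was higher and 3 did not pass, beside 7.34% lower and 15.2% higher of all tested genes. Susd4 changed by -0.87 (limma adjusted p = 0.0195) and Cpn1, of the carboxypeptidase that inactivates anaphylatoxins, by -0.83 (limma adjusted p = 0.0441). Susd4 and Cpn1 had PBS means under 5 FPKM. The call of Cpn1 was lost without any 1 library (0.0677 to 0.12) and that of Susd4 without PBS replicate 2 or 3 (0.0661 and 0.0679). Clu, of the pore-blocking chaperone clusterin, measured 63.4 ± 13.8 and 65.3 ± 16.4 FPKM (limma adjusted p = 0.93).

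Membrane regulators held Cd55b, described above, as the single gene called higher, and Cd59a, which blocks the pore, as the single one called lower of 5 tested. The shares over all tested genes were 15.2% higher and 7.34% lower. Cd59a changed by -0.75 (limma adjusted p = 0.0428), lost without any 1 library (0.0595 to 0.12). Its paralog Cd59b (change -0.69, limma adjusted p = 0.109) and C1qbp (0.35, limma adjusted p = 0.146) did not pass, and reads of the Cd59 pair may be split unevenly. Cr1l, the rodent convertase regulator Crry, was at 36.0, 39.1 and 36.7 FPKM with PBS and 49.3, 46.9 and 41.7 FPKM with bleomycin, without overlap, and did not pass (change 0.29 ± 0.14, limma adjusted p = 0.18).

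Of the 6 tested receptor genes 5 were called higher, beside 15.2% of all tested genes, and Cd93 was not called. C5ar1, Cr2 and Itgam were under 1 FPKM in every PBS library. They passed the filter only through the bleomycin libraries, so only a rise could be called for them. Itgb2 and Itgam, the chains of complement receptor 3, rose by 4.97 ± 0.21 and 4.08 ± 0.18. Itgax, of complement receptor 4, rose by 3.81 ± 0.18 and Cr2, the B cell receptor of C3 fragments, by 2.71 ± 0.22. Each had a limma adjusted p of 0.000446 or less. The sizes depended on the pseudocount, because PBS values were low. With 0.1 and with 5 they were 5.36 and 3.99 for Itgb2 and 5.83 and 2.27 for Itgam. Those of Itgax were 4.55 and 2.47, and those of Cr2 4.90 and 1.16. Itgam went from 0.256, 0.195 and 0.341 FPKM in the PBS libraries to 22.8, 16.8 and 22.2 FPKM in the bleomycin libraries. These calls, and that of C5ar1, held with any 1 library left out. The 4 pan-leukocyte markers had a median log2 fold change of 4.90 in the same libraries, and their part in these rises was not tested.

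**Figure D4:**
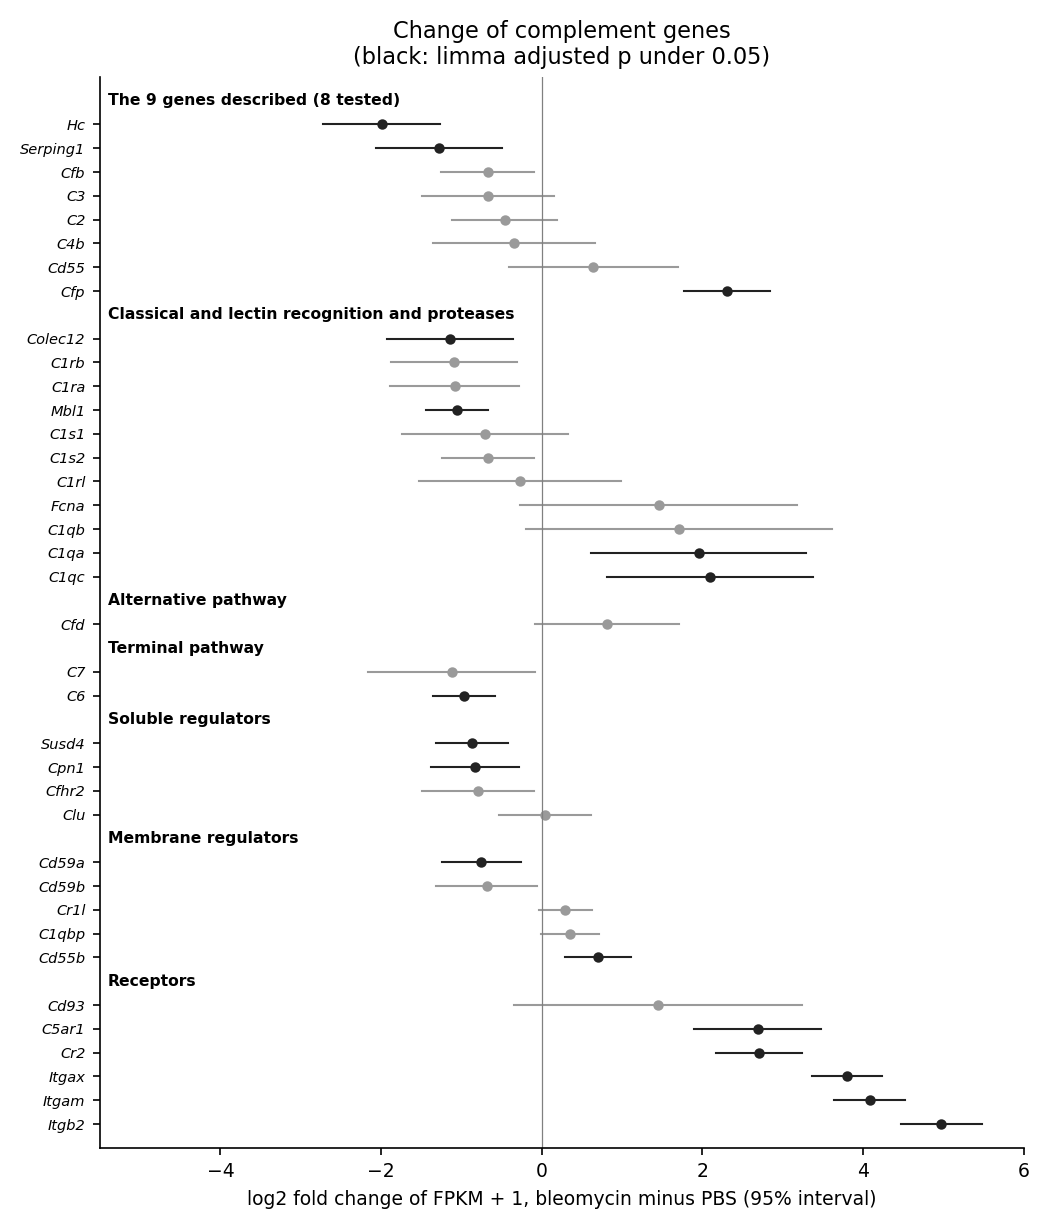
Log2 fold change of FPKM + 1 (bleomycin minus PBS, 3 libraries each) with its 95% interval for the 8 tested genes of the main set and 29 of the 30 other tested complement genes, by role. Black marks a limma adjusted p under 0.05: the 5 called receptors lie from 2.69 to 4.97, while C6, Hc and Serping1 lie below 0.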

How the data were processed

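Total RNA was isolated with TRIzol and libraries were made with a KAPA stranded kit, per the labels' protocols. HISAT2, StringTie, FastQC 0.10.1 and the build mm10 are named per the submitters' processing notes. Their settings and annotation were not given in the sources used here. Per transcript and library, the authors deposited an FPKM value, per the file headers, for 24647 protein-coding transcripts of 13931 genes, summing to 253146 to 300697 per library. Transcript values were summed by gene ID. Where 2 IDs carry a symbol, the more abundant is used. Whole reads could not be recovered: of 300 low values per library, at most 42% fell within 2% of multiples of 1 step, so depth is unknown.

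Genes reaching 1 FPKM in 3 libraries (2 where a library was left out) were tested with limma 3.58.1 in R 4.3.3 (trend, group only) on log2(FPKM + 1), with Benjamini-Hochberg adjustment. The script was tested on simulated data. All 9 genes are described; of the other complement genes, the rule names up to 4 per role with the smallest adjusted p plus a fixed set (C1qa, C5ar1, Cfd, C4a, Cd59a, Clu and Cr1l among it). Some results named by these rules are not reported here. C1qb, C1ra, C1s1, C8g and Cd93 fall outside it and were added after their values were seen. Genes, lists and tests were chosen with earlier results of these data known. The design names 3 mice per group, matching the 3 libraries. Alternatives covered the pseudocount, filter, scaling, transcript sum, variance model, weights, replicate block and each library left out.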

Additional observations from a re-analysis of the deposited data

How the results depend on the processing

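The directions of the 8 tested genes held under all alternatives, except C4b, which changed by 0.13 without bleomycin replicate 1 (-0.73 to 0.13 with a library left out). C3ar1 was below the filter and was fitted only without it, so it has no second value to compare. Hc and Cfp kept their calls in all of them. With equal medians Cfb was called (-0.86). With the replicate number as a block Serping1 was not called (-1.28, limma adjusted p = 0.0715), which left 1 gene called lower. With a library left out Serping1 changed by -1.51 to -0.94 and 1 to 2 genes were called lower. Over all genes, the count of lower calls was 1412 with equal medians, 1441 with quantile normalization, 563 with the replicate block and 459 to 874 with a library left out, against 905. The split of all calls into higher and lower was 1475 and 1412 with equal medians and 1431 and 1441 with quantile normalization, against 1871 and 905. Of the other complement genes, 5 were called higher with a filter of 5 FPKM (which tests 15 of them) or the block, and 5 to 7 with a library left out, against 8. The lower calls numbered 1 with that filter, 3 with equal FPKM sums, 1 on the highest transcript alone, 3 with the block and 2 to 6 with a library left out, against 6. Whether the replicate numbers pair the mice is not known. Deviations of same-numbered libraries correlated across genes with r of -0.0043, 0.0172 and 0.0391, against -0.0353 to 0.0209 for unlike numbers. Such small correlations show no strong shared effect, and they cannot exclude pairing. The causes of the shifts between alternatives were not tested. The 3 libraries per group and the unknown depth limit all tests.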

Other observations

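Over the interval from C4b to Ehmt2 on chromosome 17 the files list 10 genes. Besides C4b, Cfb and C2, 5 were tested and none was called, beside 22.5% of all tested genes. Gm20547 and Zbtb12 were below the filter and not tested. Stk19, Dxo, Skiv2l and Nelfe, which lie between C4b and Cfb, measured 9.87, 11.4, 8.19 and 11.8 FPKM on average with PBS and 10.7, 12.2, 9.40 and 12.1 with bleomycin. Ehmt2, a histone methyltransferase gene past C2, measured 34.3 and 36.5 FPKM. Their log2 fold changes were 0.10, 0.09, 0.23, 0.04 and 0.09 (limma adjusted p 0.589 to 0.887). Values of C2 and Cfb in bleomycin replicate 1, 17.5 and 17.1 FPKM, were the lowest of the 6 libraries for both.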
